A study of Mus musculus with 6 samples.

Results

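CXCR3 is a chemokine receptor, and Cxcl9, Cxcl10 and Cxcl11 encode the chemokines that bind it. These 4 genes, found by their symbols among the 31130 genes of the deposited tables, were measured in mouse lung tumors that grew with or without interstitial pneumonia (IP). They were chosen by their place in the chemokine system and with the difference between the groups already known, so their levels are given as a description and without a test.

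Tumor tissue was sampled on day 21 from mice injected in the left lung on day 14 with Lewis lung carcinoma (LLC) cells labelled with enhanced green fluorescent protein, a line of mouse lung cancer. The IP + LC group had received bleomycin, a drug that injures and scars the lung, at 2.0 mg/kg through the oropharynx 14 days before the cells, and the lung cancer alone (LC) group had not. All mice were female C57BL/6 mice, 6 to 8 weeks old and labelled as wild type, and each group had 3 tumor libraries. The model holds 1 injected cell line in 1 mouse strain, and every mouse of both groups carried LLC cells, so neither group shows the lung without a tumor.

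CXCR3 is carried mainly by activated T cells and natural killer (NK) cells, which migrate toward higher concentrations of its ligands. The ligands are made by macrophages, dendritic cells, endothelium, fibroblasts and epithelium, mostly after exposure to interferon-γ, which acts through the JAK kinases. CXCL9 depends most on interferon-γ, whereas CXCL10 also responds to type I interferons and to NF-kB, and CXCL11 binds the receptor most tightly. The C57BL/6 strain carries a frameshift in Cxcl11 and does not make an intact CXCL11 protein, and the deposited tables class the gene as a polymorphic pseudogene.

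Cxcl9 (ENSMUSG00000029417), Cxcl10 (ENSMUSG00000034855) and Cxcl11 (ENSMUSG00000060183) lay side by side on the minus strand of chromosome 5, at chr5:92321347-92328079, chr5:92346638-92348889 and chr5:92359544-92365485 of GRCm38. The cluster from the end of Cxcl9 to the start of Cxcl11 was 44139 bases long. Cxcr3 (ENSMUSG00000050232) lay apart from them on the minus strand at chrX:101731535-101734269.

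The bases just upstream of the start of Cxcl9 and Cxcl10, the most abundant ligands here, are shown because transcription factors that carry the interferon and NF-kB signals bind such stretches. They are the 250 bases before each start in RefSeq's GRCm38.p6, read 5′ to 3′ on the minus strand, from chr5:92328080-92328329 for Cxcl9 and from chr5:92348890-92349139 for Cxcl10. Capitals mark the letters that matched a motif.
Cxcl9: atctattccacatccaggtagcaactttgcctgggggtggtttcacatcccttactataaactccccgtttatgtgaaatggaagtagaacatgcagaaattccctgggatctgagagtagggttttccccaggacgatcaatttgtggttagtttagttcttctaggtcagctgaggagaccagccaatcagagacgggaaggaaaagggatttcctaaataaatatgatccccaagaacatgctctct
Cxcl10: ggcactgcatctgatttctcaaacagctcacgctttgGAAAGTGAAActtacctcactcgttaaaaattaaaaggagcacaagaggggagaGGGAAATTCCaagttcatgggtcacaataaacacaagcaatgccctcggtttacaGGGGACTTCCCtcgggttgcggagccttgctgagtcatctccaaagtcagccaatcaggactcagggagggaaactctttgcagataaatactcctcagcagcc
A RefSeq window was at hand for 3 of the 4 genes, Cxcl9, Cxcl10 and Cxcr3. Both strands of each window were searched for the GAS letters TTCNNNGAA, an element of genes that interferon-γ induces, for the core of the ISRE, which is GAAA repeated after a gap of 2 bases and is bound by IRF proteins, and for the NF-kB consensus. Cxcl10 held 1 ISRE core, GAAAGTGAAA, from 213 to 204 bases before the start. It also held 3 NF-kB matches, GGGAAATTCC at 159 to 150 bases and GGGGACTTCC and GGGACTTCCC at 104 to 95 and 103 to 94 bases before the start, of which the last 2 overlap. Cxcl9 and Cxcr3 held none of the 3 motifs in their windows. Among all 32851 RefSeq windows of 300 bases, which run from 250 bases before to 50 after the start, 8.30% held a GAS, 3.44% an ISRE core and 8.46% an NF-kB match. A match is a description of the letters and not a site shown to be used, and a window without one says nothing about the factor.

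The libraries held 592733 to 1631066 unique molecular identifiers (UMIs), each standing for 1 captured RNA molecule, and LC replicate 1 was the shallowest. LC replicate 1 also stood apart, with a correlation of 0.799 to 0.84 with the other LC tumors against 0.962 between those 2, so values that rest on it are also given without it. The labels name lung cancer cells as the cell type, but the libraries also held transcripts of the host lung, and the 8 lung epithelium markers summed to 75636 to 83810 CPM in LC and 8613 to 15641 CPM in IP + LC. CPM is the UMI count of a gene scaled to a common library total. Of 11240 genes that passed the filter on low counts, 16.8% were called higher and 19.6% lower in IP + LC by edgeR's quasi-likelihood test at a Benjamini-Hochberg adjusted p below 0.1, and the median log2 fold change over all tested genes was 0.02. In 21.6% of tested genes every IP + LC tumor lay above every LC tumor.

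Cxcl9 was the most abundant of the 3 ligands in IP + LC tumors. It had 15, 17 and 41 UMIs in LC replicates 1 to 3 and 1261, 2346 and 1608 UMIs in IP + LC replicates 1 to 3. After scaling for library size and composition, these were 25.8, 13.3 and 34.7 CPM in LC and 914, 1369 and 1168 CPM in IP + LC. The lowest IP + LC tumor lay far above the highest LC tumor, and the groups did not overlap. The mean was 24.6 ± 10.8 CPM (SD, n = 3) in LC and 1150 ± 228 CPM (SD, n = 3) in IP + LC, a ratio of 46.7, and the fitted log2 fold change was 5.55 with a standard error of 0.38. Without LC replicate 1 the ratio of means was 47.9. When all genes of a tumor were ordered by UMIs, which count each molecule once at its poly(A) end whatever its length, Cxcl9 stood at place 6137, 9291 and 5366 in the LC tumors and at place 99, 60 and 77 in the IP + LC tumors.

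Cxcl10, also known as interferon-γ-induced protein 10, followed the same order among the IP + LC tumors at a lower level. It had 14, 5 and 14 UMIs in the LC tumors and 334, 616 and 484 UMIs in the IP + LC tumors. In CPM it was 24.1, 3.92 and 11.9 in LC and 242, 360 and 351 in IP + LC. Again every IP + LC tumor lay above every LC tumor, and LC replicate 1 was the highest of its group. The means were 13.3 ± 10.2 CPM (SD, n = 3) and 318 ± 65.5 CPM (SD, n = 3), and the fitted log2 fold change was 4.75 with a standard error of 0.48. The ratio of means was 23.9 and moved to 40.3 without LC replicate 1, so the size of the Cxcl10 difference depended on that library while its direction did not. By UMIs, Cxcl10 stood at place 6415, 12878 and 10008 in LC and 565, 344 and 359 in IP + LC.

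Cxcl11 was the scarcest ligand. It had 1, 0 and 1 UMI in the LC tumors and 19, 46 and 33 UMIs in the IP + LC tumors. The IP + LC tumors lay at 13.8, 26.8 and 24.0 CPM, with a mean of 21.5 ± 6.87 CPM (SD, n = 3). The LC tumors were at or below the limit of 3 UMIs that a count of 0 allows, so transcripts of Cxcl11 were close to undetected in LC at this depth. Summed over each group, 2 UMIs in LC stood against 98 in IP + LC, a ratio of 37.8 per UMI sequenced with an exact 95% interval of 10.2 to 317 for counting error only. The fitted log2 fold change of 4.84 depends on the prior count that the fit adds to such low values, and it was 5.47 without LC replicate 1 and 4.13 without LC replicate 2. Because C57BL/6 mice lack an intact reading frame in this gene, the count is of transcripts and does not speak to a CXCL11 protein.

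The receptor did not move on the scale of its ligands. Cxcr3 had 4, 5 and 6 UMIs in the LC tumors and 10, 12 and 11 UMIs in the IP + LC tumors. In CPM these were 6.89, 3.92 and 5.08 in LC and 7.25, 7.0 and 7.99 in IP + LC. The IP + LC tumors lay above the LC tumors in CPM, but the gap between the highest LC and the lowest IP + LC tumor was less than the spread within the LC group. The mean was 5.30 ± 1.5 CPM (SD, n = 3) in LC and 7.41 ± 0.512 CPM (SD, n = 3) in IP + LC, a ratio of 1.4, or 1.65 without LC replicate 1. Summed over each group, 15 against 33 UMIs gave a ratio of 1.70 with an exact 95% interval of 0.897 to 3.37. This interval spans equal rates, but it covers counting error only, leaves out the spread between tumors and is not a test. Every library was also thinned once at random to 592733 UMIs. Cxcr3 then had 4, 3 and 4 UMIs in LC and 3, 5 and 3 UMIs in IP + LC, and the group sums were equal. Counts this low vary from draw to draw, so the equal sums do not show that a difference is absent at equal depth. Scaled by library size alone, without thinning, the log2 ratio of mean CPM was 0.64. Cxcr3 did not pass the filter on low counts, so 3 of the 4 genes entered the fit. A difference in Cxcr3 was not tested, and its few UMIs leave the size of any difference uncertain.

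**Figure D1:**
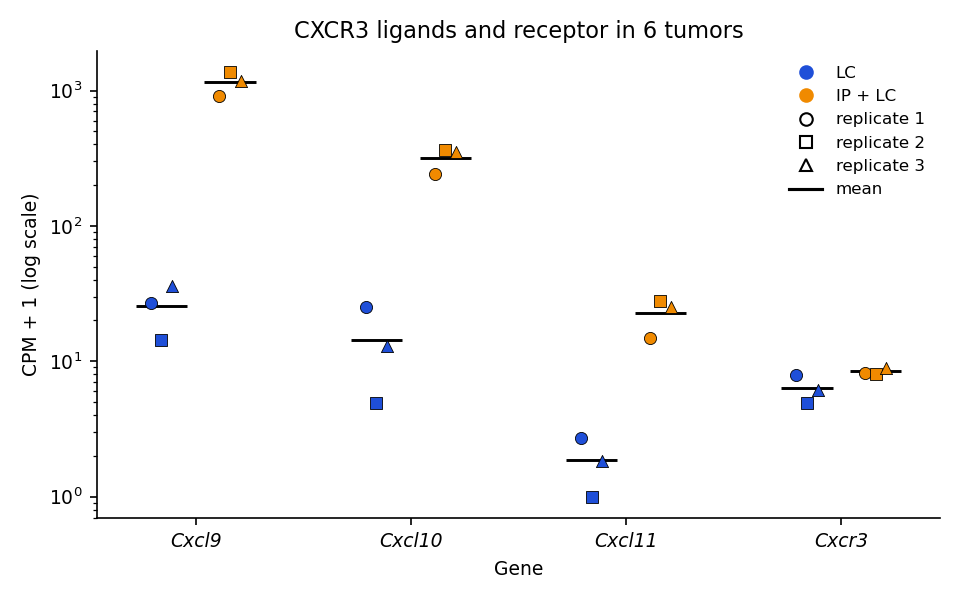
Level of each ligand and of the receptor in every tumor, as CPM + 1 on a log axis. Points are tumors, with the shape giving the replicate number, blue LC and orange IP + LC, and black lines are the group means. Cxcl9 lies at 13.3 to 34.7 CPM in LC and at 914 to 1369 CPM in IP + LC, whereas Cxcr3 lies between 3.92 and 7.99 CPM in all 6 tumors.

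The plot of the 4 genes by tumor shows the 3 ligands at 3 different levels in IP + LC, with Cxcl9 and Cxcl10 overlapping in LC, and the receptor at a similar low level in both groups. After thinning to 592733 UMIs per library, Cxcl9 still had 15, 8 and 17 UMIs in LC and 545, 851 and 711 in IP + LC. Thinned Cxcl10 had 14, 1 and 6 UMIs in LC against 142, 228 and 212 in IP + LC, and thinned Cxcl11 had 1, 0 and 0 against 11, 18 and 11. The ligand differences were therefore present at equal depth. In bulk tissue, more cells that make a ligand and more ligand RNA in each cell cannot be told apart.

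The ligands kept nearly the same proportions in the IP + LC tumors although their amounts differed. IP + LC replicate 2 had the most UMIs of each ligand and replicate 1 the fewest, and the 3 ligands together gave 1614, 3008 and 2125 UMIs in IP + LC replicates 1 to 3. Of these, Cxcl9 made up 78.1%, 78.0% and 75.7%. Cxcl10 made up 20.7%, 20.5% and 22.8%, and Cxcl11 1.18%, 1.53% and 1.55%. The shares of Cxcl9 and Cxcl10 thus differed by less than 3 percentage points across the 3 tumors. Divided by the exonic length of each gene, the mean share of Cxcl9 in IP + LC was 72.3% instead of 77.3%. UMIs counted at the poly(A) end do not call for that division, so the undivided share is the one to read.

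In LC the proportions rested on 30, 22 and 56 ligand UMIs. Cxcl9 made up 50% in LC replicate 1, with an exact 95% binomial interval of 31.3% to 68.7%. In LC replicates 2 and 3 its share was 77.3% (54.6% to 92.2%) and 73.2% (59.7% to 84.2%). The last 2 intervals held the IP + LC shares, and that of LC replicate 1 did not. LC replicate 1 accordingly had 1.07 Cxcl9 UMIs for each Cxcl10 UMI, where the other LC tumors had 3.40 and 2.93 and the IP + LC tumors had 3.78, 3.81 and 3.32. The 0 of 22 Cxcl11 UMIs in LC replicate 2 allow a share of up to 13.6% by the limit of 3 UMIs and of up to 15.4% by the exact interval.

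**Figure D2:**
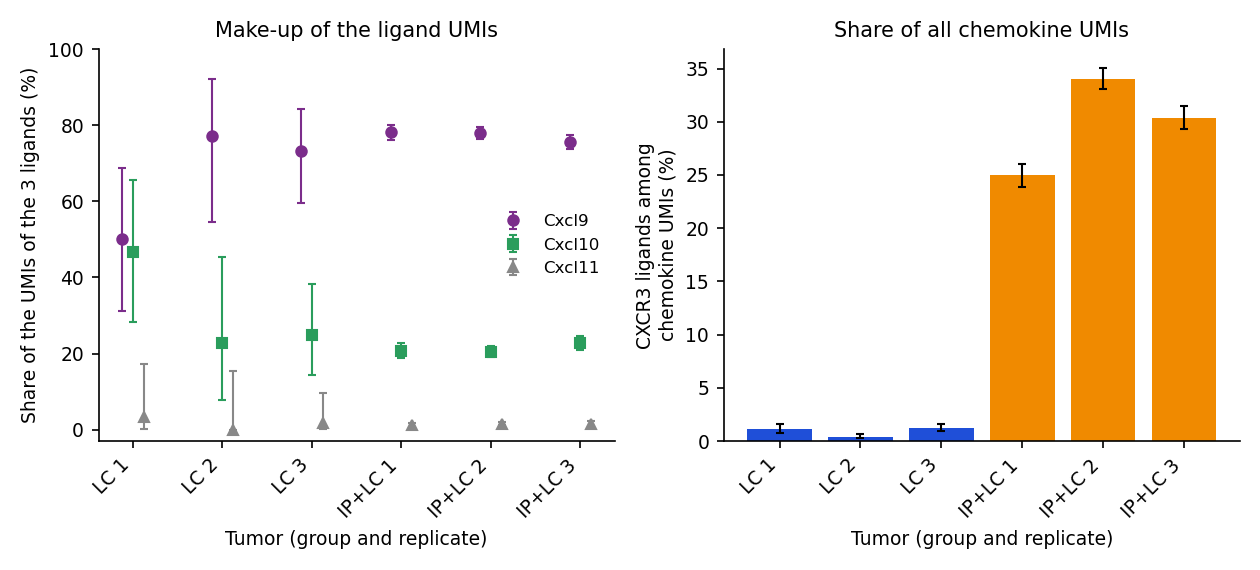
Left, share of Cxcl9, Cxcl10 and Cxcl11 among the UMIs of the 3 ligands in each tumor, with exact 95% binomial intervals as bars. Right, share of the 3 ligands among the UMIs of 37 chemokine genes in each tumor, LC in blue and IP + LC in orange, from 0.416% in LC replicate 2 to 34.1% in IP + LC replicate 2.

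Set against the other chemokines, the CXCR3 ligands went from a small to a large part of the chemokine transcripts. Over 37 chemokine genes, grouped by symbol after their values had been seen, the 3 ligands made up 1.13%, 0.416% and 1.25% of chemokine UMIs in the LC tumors and 25.0%, 34.1% and 30.4% in the IP + LC tumors. The bars of chemokine share show the groups far apart in each tumor. Cxcl9 stood at place 16, 20 and 11 among the 37 genes in LC and was first in all 3 IP + LC tumors. Cxcl10 moved from places 17, 28 and 16 to place 5 in each IP + LC tumor. The most abundant chemokine of every LC tumor was Cxcl15, known as lungkine and made by lung epithelium, which had 1118, 2958 and 2780 UMIs in LC and 972, 1059 and 1179 in IP + LC. Without Cxcl15 in the total, the ligand share was 1.95%, 0.945% and 3.29% in LC and 29.4%, 38.7% and 36.5% in IP + LC, so the groups did not overlap without that gene either.

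Among the cytokines that induce the ligands, interferon-γ transcripts were seen only in IP + LC tumors. Of the 9 listed cytokines, 8 were in the tables, Ifnb1 was not analysed here, and 3 passed the filter, of which 1 rose and 1 fell, beside 16.8% and 19.6% of all tested genes, with a median log2 fold change of -0.46. Without LC replicate 1 the fit called 3 higher and 2 lower of 5 tested, and without IP + LC replicate 2 it called 0 of 3. Ifng, which encodes interferon-γ, had 0 UMIs in each LC tumor and 8, 14 and 11 UMIs in the IP + LC tumors. Set against 3 counts over the LC group, Ifng was at least 8.49-fold higher per UMI sequenced in IP + LC. Tnf, which encodes the NF-kB-activating cytokine TNF, had 0, 3 and 0 UMIs in LC and 8, 13 and 12 in IP + LC, a ratio of 8.49 with a counting interval of 2.66 to 43.3. Il27, a subunit of interleukin-27, had 0, 0 and 1 against 5, 2 and 4 UMIs, a ratio of 8.49 with an interval of 1.23 to 366. All 3 genes were too scarce for the test, and their intervals cover counting error only.

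The interleukin-12 subunits, which drive interferon-γ production by T and NK cells, were also near the detection limit. Il12a had 3, 5 and 3 UMIs in LC and 1, 0 and 2 in IP + LC, a ratio of 0.211 with a counting interval of 0.0377 to 0.797. Il12b had 0, 1 and 2 against 1, 7 and 2 UMIs, a ratio of 2.57 with an interval of 0.663 to 14.6. Il18, a cytokine that acts with interleukin-12, fell from 33.4 ± 2.54 to 18.6 ± 3.69 CPM (log2 fold change -0.86, adjusted p = 0.0283 by edgeR), and this call was lost in 4 of 13 alternative settings. Il1b, which encodes interleukin-1β, rose from 76.2 ± 30.02 to 152 ± 50.1 CPM (log2 fold change 1.04, adjusted p = 0.0477 by edgeR), with IP + LC replicate 3 below the highest LC tumor, and its call was also lost in 4 of 13 settings. Il15, which maintains NK and memory T cells, was at 12.6 ± 6.47 and 9.93 ± 1.49 CPM and did not pass the test (adjusted p = 0.408 by edgeR).

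Between the cytokines and the ligands stand the receptors, kinases and transcription factors that carry the interferon and NF-kB signals. All 17 listed genes were tested, and 9 rose, 0 fell and 8 did not pass, beside 16.8% of all tested genes that rose and 19.6% that fell. Without LC replicate 1, 13 rose and 1, Ifngr1, fell, and without each other library 7 or 8 rose and 0 fell. The median log2 fold change of the 17 genes was 0.69, against 0.02 over all tested genes. These counts share the contrast on which the ligands were picked and describe the list only.

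The largest difference among them was that of Socs1, an inhibitor that interferon-γ induces and that blocks JAK kinases in return. Socs1 had 9, 7 and 8 UMIs in LC and 160, 232 and 197 in IP + LC, and its mean rose from 9.25 ± 5.45 to 131 ± 13.9 CPM (log2 fold change 3.98, SE 0.33, adjusted p = 0.00057 by edgeR). The ratio of its means was 14.2, and 21.4 without LC replicate 1. The groups lay apart, and in CPM the highest Socs1 level was that of IP + LC replicate 3, whereas Cxcl9, Cxcl10 and Cxcl11 were highest in replicate 2.

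The interferon regulatory factors did not move as 1 group. Irf1, a transcription factor that interferon-γ induces, rose from 110 ± 51.8 to 387 ± 41.6 CPM (log2 fold change 1.84, adjusted p = 0.0051 by edgeR). Irf7, the factor that amplifies type I interferon, rose from 48.7 ± 9.39 to 160 ± 52.8 CPM (log2 fold change 1.74, adjusted p = 0.0042 by edgeR). Irf8, a factor of macrophage and dendritic cell development, rose by 1.30 on the log2 scale (adjusted p = 0.0047 by edgeR). Irf9, the DNA-binding partner of STAT2, rose by 0.56 (adjusted p = 0.0742 by edgeR), a call that was lost in 9 of 13 settings. Irf3 did not pass the test, at a log2 fold change of -0.36.

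Stat2 rose by 1.45 on the log2 scale (adjusted p = 0.0058 by edgeR) and Ifnar1, a chain of the type I interferon receptor, by 1.05 (adjusted p = 0.0095 by edgeR). Nfkb1, which encodes an NF-kB subunit, rose by 0.69 (adjusted p = 0.0322 by edgeR) and lost its call in 3 of 13 settings. The interferon-γ receptor chains did not pass: the log2 fold changes were -0.52 for Ifngr1 (adjusted p = 0.162 by edgeR) and 0.75 for Ifngr2 (adjusted p = 0.176 by edgeR). Every IP + LC tumor lay above every LC tumor for Ifngr2, which passed in 4 of 13 settings, among them that without LC replicate 1. The log2 fold changes of Ifnar2, of the kinases Jak1, Jak2 and Tyk2, and of the NF-kB subunit Rela lay between 0.17 and 0.57, and none of these genes passed.

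**Figure D3:**
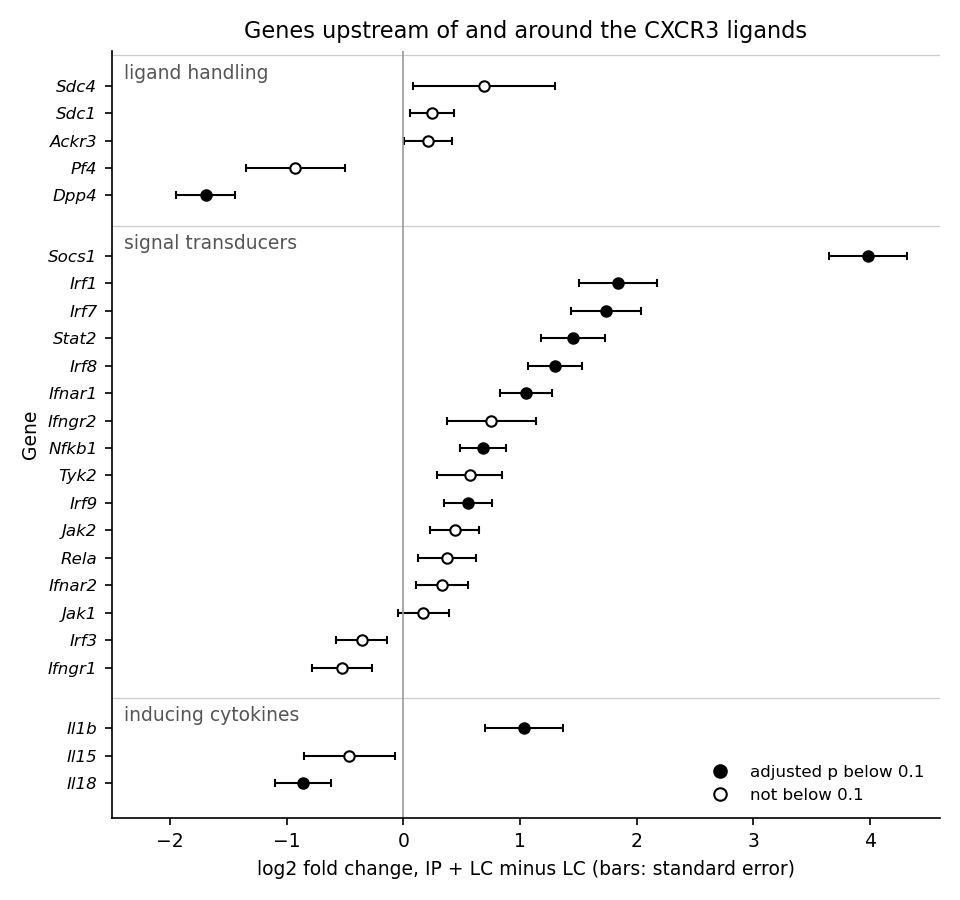
log2 fold change of IP + LC against LC for the tested genes reported from 3 lists, namely cytokines that induce the CXCR3 ligands, the signal transducers and the genes that handle the ligands. Bars are standard errors of the fit and filled points passed the adjusted p limit of 0.1. Socs1 lies furthest to the right at 3.98 and Dpp4 furthest to the left at -1.70.

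The plot of the 3 lists shows Socs1 at the high end and a single filled point, Dpp4, to the left among the genes that act on the ligands after secretion. Dpp4 encodes CD26, a protease that trims the amino terminus of the CXCR3 ligands and weakens their signal. It had 28, 107 and 93 UMIs in LC and 28, 40 and 31 in IP + LC. In CPM every IP + LC tumor lay below every LC tumor, and the mean fell from 70.3 ± 19.3 to 22.1 ± 1.57 CPM (log2 fold change -1.70, SE 0.25, adjusted p = 0.0022 by edgeR), a call that held in all 13 settings. Dpp4 is also made by lung epithelium and endothelium, whose marker lists fell in the same tumors, and their part in its fall was not tested.

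The other genes of ligand handling did not pass the test. Pf4, a platelet chemokine, differed by -0.93 on the log2 scale (adjusted p = 0.139 by edgeR). Sdc1 and Sdc4, membrane proteoglycans with heparan sulfate chains that hold chemokines at the cell surface, had log2 fold changes of 0.24 and 0.69 (adjusted p = 0.366 and 0.433 by edgeR). Sdc4 was uneven within LC, at 43, 918 and 806 UMIs. For Ackr3, a scavenging receptor for CXCL11 and CXCL12, the log2 fold change was 0.21 (adjusted p = 0.479 by edgeR), and Ackr1, a chemokine-binding receptor of red cells and venules, had 1, 3 and 2 against 2, 9 and 4 UMIs and was not tested. Of the 6 listed genes 5 were tested, 0 rose and 1 fell, beside 16.8% and 19.6% of all tested genes, and their median log2 fold change was 0.21. The ratio of the Pf4 means was 0.509, and 0.834 without LC replicate 1, whose level was the highest. Pf4 passed as lower without LC replicate 3, with a replicate block and without the low-count filter, and Sdc4 passed as higher without that filter.

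The cells that CXCR3 marks were followed through 24 genes of T and NK cells, of which 18 were tested. Of these 4 rose, 2 fell and 12 did not pass, with a median log2 fold change of 0.29. These are 22.2% higher and 11.1% lower, near the 16.8% and 19.6% of all tested genes. Their summed level was 510, 501 and 504 CPM in LC and 489, 738 and 650 CPM in IP + LC. Gzmb, the protease granzyme B of killer cells, rose from 11.5 ± 4.14 to 45.01 ± 17.6 CPM (log2 fold change 1.88, adjusted p = 0.0069 by edgeR). Gzma, which encodes granzyme A, moved the other way, from 96.0 ± 20.7 to 38.3 ± 1.99 CPM (log2 fold change -1.34, adjusted p = 0.0035 by edgeR). Klrb1c, the NK cell receptor NK1.1, also fell, with 8, 11 and 15 against 8, 10 and 8 UMIs (log2 fold change -0.95, adjusted p = 0.0707 by edgeR), a call lost in 8 of 11 settings.

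Read against T cell transcripts, the receptor overlapped between the groups. The 4 CD3 chain genes Cd3d, Cd3e, Cd3g and Cd247, which form the signalling part of the T cell receptor, summed to 41, 105 and 71 UMIs in LC and 75, 168 and 128 in IP + LC. For every 100 of these there were 9.76, 4.76 and 8.45 Cxcr3 UMIs in LC and 13.3, 7.14 and 8.59 in IP + LC. The widest exact 95% interval ran from 2.54 to 26.9 in LC replicate 1, and the narrowest, from 3.62 to 12.8, in IP + LC replicate 2. The ligands outnumbered the receptor by 7.50, 4.40 and 9.33 UMIs to 1 in LC and by 161, 251 and 193 to 1 in IP + LC.

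**Figure D4:**
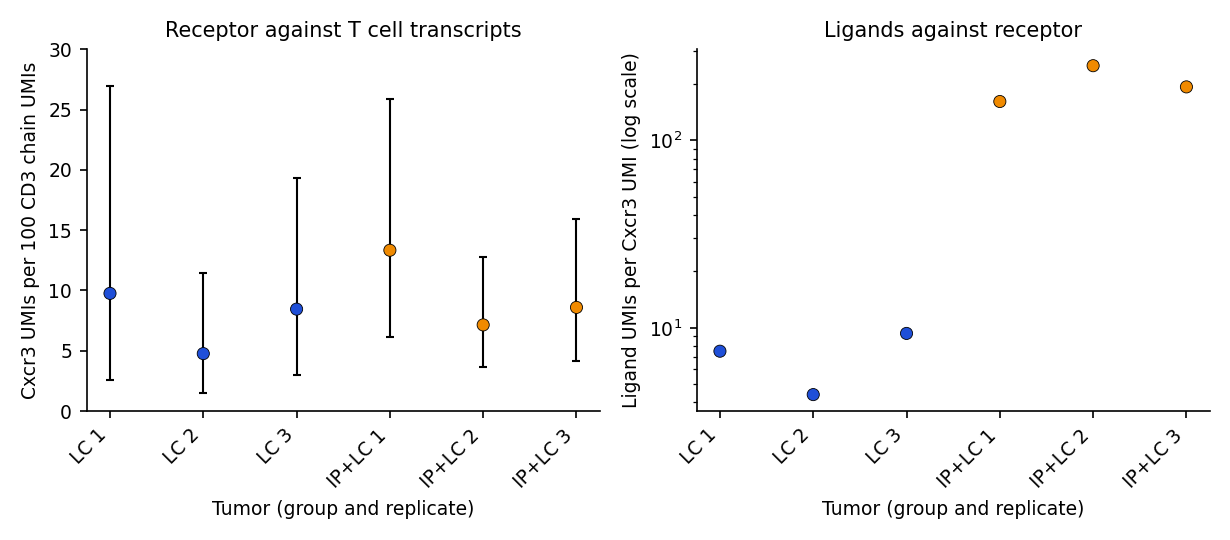
Left, Cxcr3 UMIs per 100 UMIs of the 4 CD3 chain genes in each tumor, with exact 95% intervals for counting error as bars. Right, UMIs of the 3 ligands together for each Cxcr3 UMI, on a log axis. LC is blue and IP + LC orange, and the groups overlap on the left (4.76 to 9.76 against 7.14 to 13.3) and lie apart on the right (4.40 to 9.33 against 161 to 251).

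In the plots of the receptor the groups overlap for Cxcr3 per CD3 chain UMI and lie apart for ligands per Cxcr3 UMI.

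Other CXC chemokines and their receptors did not move in 1 direction. Of 16 listed genes 15 were tested, and 5 rose, 5 fell and 5 did not pass, with a median log2 fold change of -0.16. That is 33.3% in each direction, beside 16.8% higher and 19.6% lower among all tested genes, and 2 of the falls, those of Cxcr4 and Cxcr5, lost their call in 9 of 13 and 7 of 11 settings. Cxcl2 and Cxcl1, which attract neutrophils through CXCR2, rose from 4.05 ± 2.73 to 26.3 ± 10.1 CPM and from 4.73 ± 1.89 to 24.0 ± 8.27 CPM (log2 fold changes 2.53 and 2.45, adjusted p = 0.0065 and 0.0049 by edgeR). The largest falls were those of Ppbp, a platelet chemokine, at -2.35 on the log2 scale (adjusted p = 0.0101 by edgeR) and of Cxcl15 at -1.60 (adjusted p = 0.0018 by edgeR).

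Markers of the cell types that can make the ligands moved with the groups as well, and their counts stand beside 16.8% of all tested genes that rose and 19.6% that fell. The 9 macrophage markers summed to 1865, 728 and 581 CPM in LC and 1885, 2308 and 2062 CPM in IP + LC, and 4 of 9 rose and 0 fell, led by Fcgr1 (log2 fold change 2.42, adjusted p = 0.0016 by edgeR) and C1qa (log2 fold change 1.36, adjusted p = 0.0896 by edgeR, a call lost at the limit of 0.05). The ratio of the C1qa means was 2.53, and 5.27 without LC replicate 1. The other 5 macrophage markers did not pass and did not move in 1 direction. Their log2 fold changes were 1.12 for C1qb, 0.679 for Cd68, 0.593 for Csf1r, -0.0167 for Mrc1 and -0.997 for Mertk. The ratio of the Mertk means was 0.542, and 0.386 without LC replicate 1. Without LC replicate 1, 7 of 9 rose and 1 fell, and without each other library 2 rose and 0 fell. The macrophage sum of LC replicate 1, the library that stood apart, was close to that of IP + LC replicate 1. The dendritic cell markers summed to 149 to 205 CPM in LC and 181 to 237 CPM in IP + LC, with 2 of 7 tested genes higher (Fscn1 and Batf3) and 2 lower (Cd209a and Ccr7), but leaving out 1 library moved these calls to between 1 and 7. Without LC replicate 1 the ratio of means went from 3.30 to 6.21 for Fscn1 and from 2.60 to 5.47 for Batf3. The 5 monocyte markers summed to 1572 to 1852 CPM in LC and 927 to 1011 CPM in IP + LC, with 3 higher, among them Ly6c2 and Plac8, and 2 lower, among them Chil3, and without IP + LC replicate 1 the calls were 3 and without replicate 2 they were 2. The lower sum in IP + LC was that of Chil3, at 1102 to 1316 CPM in LC and 134 to 312 CPM in IP + LC, and the other 4 monocyte markers summed to 470.1 to 536 CPM in LC and to 615 to 877 CPM in IP + LC.

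Endothelium and epithelium, which can also make the ligands, had lower marker levels in the IP + LC tumors, and fibroblast markers were mixed. All 7 endothelial markers fell, with Tek and Cldn5 the lowest at -2.60 and -2.26 on the log2 scale, and their sum was 1054 to 1836 CPM in LC and 365 to 463 CPM in IP + LC. Of 6 fibroblast markers 4 fell, with Dcn at -2.11, and Col1a1 rose by 1.42, while Col3a1 lay higher in every IP + LC tumor without passing (adjusted p = 0.106 by edgeR). The fibroblast sums overlapped, at 1283 to 1688 CPM in LC and 1211 to 1360 CPM in IP + LC. All 8 epithelial markers fell, with Scgb1a1 at -3.22. Neutrophil markers had 0 higher and 3 lower of 5 tested, and B cell markers 0 higher and 4 lower of 5, or 2 lower without LC replicate 2, IP + LC replicate 1 or IP + LC replicate 2. Of 6 proliferation genes 5 rose, with Cenpe at 3.38 and Top2a at 2.96, where the ratio of the Top2a means went from 7.44 to 12.1 without LC replicate 1, and their sum was 482, 118 and 114 CPM in LC and 979 to 1153 CPM in IP + LC, and 3 rose without any 1 library other than LC replicate 1. No marker of these lists was at 0 in all libraries, and the part of any of these cell types in the ligand levels was not tested.

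The genes around the ligand cluster moved in both directions and less than the ligands. Of 20 other genes of the deposited tables with a start within 500000 bases of the cluster, 14 were tested, and 4 rose, 4 fell and 6 did not pass, with a median log2 fold change of 0.17. That is 28.6% in each direction, beside 16.8% higher and 19.6% lower among all tested genes. Without LC replicate 1 the calls numbered 12, and without LC replicate 2 or IP + LC replicate 1 or 2 they numbered 5. Sdad1, a ribosome biogenesis gene just beyond the Cxcl9 end, had the largest rise, from 16.9 ± 7.50 to 54.9 ± 10.3 CPM (log2 fold change 1.61, adjusted p = 0.0060 by edgeR). Naaa, a lysosomal amidase, rose by 0.86 (adjusted p = 0.0123 by edgeR), the pseudogene Gm15710 by 0.67 (adjusted p = 0.0483 by edgeR) and G3bp2, a stress granule gene, by 0.60 (adjusted p = 0.0600 by edgeR). The calls of Gm15710 and G3bp2 were lost in 4 and 7 of 13 settings.

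On the same stretch, Art3, an ADP-ribosyltransferase gene on the plus strand that spans Cxcl10 and Cxcl11, fell. It had 20, 57 and 51 UMIs in LC and 10, 16 and 16 UMIs in IP + LC, and its mean went from 40.8 ± 5.53 to 9.40 ± 2.18 CPM (log2 fold change -2.13, adjusted p = 0.0013 by edgeR). Art3 shares 133 exonic bases, 5.91% of the exonic bases of Cxcl10, on the opposite strand. Cxcl11 shares 1582 of its 3794 exonic bases, 41.7%, with the antisense gene Gm2673, which was not analysed here. Whether the counting used the strand is not stated in the sources used here, so reads from these shared stretches cannot be told apart between the partners. Cxcl9 and Cxcr3 share no exonic bases with another gene, and no stretch of 81 bases or more at 95% identity elsewhere in the transcripts matched them.

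Farther away Fam47e (log2 fold change -2.06, adjusted p = 0.0047 by edgeR), the glycogen-binding gene Stbd1 (-1.31, adjusted p = 0.0122) and the actin regulator Shroom3 (-0.62, adjusted p = 0.0538) fell, the last with a call lost in 10 of 13 settings. Thap6, Rchy1, Cdkl2, Uso1, Nup54 and Scarb2 did not pass the test.

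**Figure D5:**
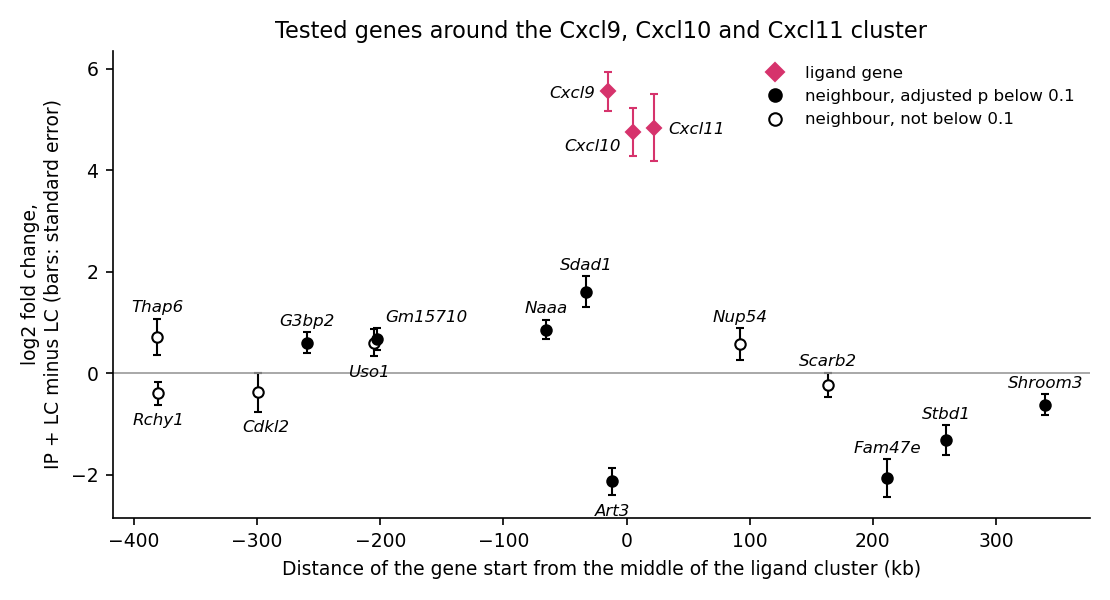
log2 fold change of IP + LC against LC for the 3 ligand genes (diamonds) and the 14 tested genes around them, by the distance of each gene start from the middle of the cluster in kilobases. Bars are standard errors and filled circles passed the adjusted p limit of 0.1. The ligands lie between 4.75 and 5.55 and all neighbours between -2.13 and 1.61, and the Cxcl11 point rests on 2 UMIs in LC.

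The plot of the locus shows the 3 ligands above all tested neighbours. Across the 6 tumors the ligands followed each other closely on the log2(CPM + 4) scale, with Pearson's r of 0.985 between Cxcl9 and Cxcl10, 0.985 between Cxcl9 and Cxcl11 and 0.986 between Cxcl10 and Cxcl11. With Cxcr3 the r values were 0.784 to 0.873, or 0.942 to 0.971 without LC replicate 1. These values describe 6 tumors that fall in 2 groups lying apart for every ligand, and all tumors share 1 scaling, so they do not show how the genes vary within a group.

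The tested genes whose levels were most like that of Cxcl9 over the 6 tumors included Parp14 (r = 0.997), an ADP-ribosyltransferase, Tcof1, a gene of ribosomal RNA synthesis, Igtp, a GTPase that interferon-γ induces, and Gnb1l. Igtp was at 35.5 ± 11.4 CPM in LC and 380 ± 23.3 CPM in IP + LC. For Cxcl10 they were Gtf2h4, a subunit of transcription factor TFIIH, Rnf213, Adam17, the protease that sheds TNF, the adhesion molecule Vcam1 and Kars, a tRNA synthetase, with r from 0.997 to 1.000. For Cxcl11 they were Ext1, an enzyme of heparan sulfate synthesis, Lrrc42, Serpina3f, Col8a1 and Trafd1, with r from 0.994 to 0.995. The log2 fold changes of these named genes ran from 0.53 for Ext1 to 3.45 for Igtp. An r of 0.95 or more with Cxcl9 was found for 373 of the 11239 other tested genes (3.32%), with Cxcl10 for 380 (3.38%) and with Cxcl11 for 331 (2.95%), so the named genes are the top of a long series.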

How the data were processed

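RNA of 3 LC and 3 IP + LC tumor samples was tagged with barcoded oligo-dT primers carrying UMIs. Per the labels and the study's methods, the authors used UMI-tools 1.1.1 for the UMIs, Trim Galore 0.6.7 for trimming, HISAT2 2.2.1 for alignment to GRCm38 and featureCounts 2.0.1 for the assignment to genes. The tables deposited hold unscaled UMI counts for 31130 genes, and the annotation release and strand setting are not given in the sources used here. Totals were 592733 to 1631066 UMIs per library, and 3 UMIs, the limit that a count of 0 allows, correspond to 1.84 to 5.06 CPM before scaling. Intervals and limits cover counting error only.

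Counts were analysed with edgeR 4.0.16 in R 4.3.3. Genes were kept by filterByExpr (minimum count 10, minimum total 15), which left 11240. TMM factors lay between 0.905 and 1.07, and CPM refers to the tested genes after TMM. The quasi-likelihood test compared the groups without a block, with Benjamini-Hochberg adjustment over all tested genes and a limit of 0.1. The script was tested on simulated data. Positions come from the GENCODE annotation of GRCm38. Neither the labels nor the methods say more than that each library is 1 tumor sample of its group, so p-values measure the spread between these samples.

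The members and lists were chosen with earlier results of these data known. Named were the 4 members, all genes of the cytokine, transducer and ligand handling lists, the called genes with the 2 largest and 2 smallest log2 fold changes of every other list, neighbours with at least 10 UMIs in 1 library, and the 5 tested genes with the highest r with each tested member. Some genes that this rule names are not reported here, and counts of lists include them. Alternatives were DESeq2 1.42.0 and its size factors, library size alone, 2 other filters, a replicate block, thinning, a limit of 0.05, division by length and leaving out each library.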

Additional observations from a re-analysis of the deposited data

How the results depend on the processing

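The higher level of Cxcl9, Cxcl10 and Cxcl11 in IP + LC kept its direction in every alternative run. The log2 fold change of Cxcl11 ran from 4.13 to 5.47 when each library was left out in turn. The log2 ratio of Cxcr3, 0.49 as reported, was 0.64 by library size alone and 0.66 without the low-count filter. It ran from 0.31 to 0.72 when each library was left out, and was 0 in the single random thinning to the smallest library. Such a draw varies by chance, so the few UMIs of Cxcr3 set its limit. The mean Cxcl9 share in IP + LC was 72.3% per exonic length instead of 77.3%, a division that UMIs counted at the poly(A) end do not call for. The ligand share of chemokine UMIs averaged 34.9% in IP + LC without Cxcl15 instead of 29.8%, an alternative chosen after seeing the data.

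The number of genes called, 4088 as reported, was 2361 after thinning and 2265 to 6691 when each library was left out, with the highest count without LC replicate 1 (3324 higher and 3367 lower) and the lowest without IP + LC replicate 2. Scaling by library size alone shifted the median log2 fold change of all genes by 0.16 and made 58.3% of the calls higher in IP + LC (2520 higher, 1800 lower) instead of 46.1%, and leaving out the filter shifted it by -0.31. Locus neighbours called, 8 as reported, were 5 after thinning and 5 to 12 when each library was left out. Signal transducers that rose, 9 as reported, numbered 13 without LC replicate 1. Of the 9 macrophage markers, 8 were called without LC replicate 1 and 2 without any other single library.

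The deviations of same-numbered tumors from their group means had correlations of 0.026, -0.12 and 0.112. Between tumors of different number these ran from -0.142 to 0.126. The values thus show no pairing by number, but 3 tumors per group cannot exclude a weak one. A fit with a replicate block called 3410 genes.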
